A study of Mus musculus with 18 samples.

Results

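Regulatory T cells (Treg) that overexpressed the microRNA miR-27 were compared with Treg that lacked both miR-23 clusters, the gene clusters that encode miR-23, miR-24 and miR-27. The 2 groups are the gain and the loss of miR-27 in the same cell type, with the difference that the gain concerns miR-27 alone and the loss concerns all members. The comparison used 6 of the 18 RNA-seq libraries, 3 labelled miR-27 Tg and 3 labelled DKO, with the spread taken from all 18. It covered 11520 of 23953 gene entries, those with at least 1 RPKM (reads normalised to the length of the transcript and to the number of mapped reads in the library) in at least 3 of the 18 libraries. All mice were of the C57BL/6 background, and the cells were CD4+CD25hi Treg sorted by flow cytometry. The miR-27 Tg mice overexpressed miR-27 in T cells, and the series title names CD4-Cre, which recombines in all T cells and not in Treg alone. The DKO mice carried a deletion, restricted to T cells, of both clusters of the family (a and b), and the labels spell this group "DKO Tg". Control libraries were labelled WT ("WT Tg"), and the remaining 3 groups overexpressed the whole cluster, miR-23 or miR-24. Age, sex, the copy number of the transgenes and whether the 3 libraries of a group came from separate mice are not given in the sources used here, so the p-values measure the spread between these libraries.

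MicroRNAs are short RNAs that guide Argonaute proteins to messenger RNAs, usually through pairing of the seed at the microRNA's 5′ end with the 3′ untranslated region (3′ UTR) of the target, which lowers the stability or the translation of that messenger. The miR-23 family clusters each transcribe miR-23, miR-27 and miR-24 from one precursor, and their members have been described as regulators of T cell activation, effector differentiation and Treg function. Treg are CD4+ T cells defined by the transcription factor Foxp3 that restrain other immune cells.

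The mature sequences show what the overexpressed microRNA can pair with, and how its seed differs from that of the other cluster members (capitals mark the seed, bases 2 to 8 from the 5′ end). Sequences and positions are from RefSeq, build GRCm38.p6, with chromosome 8 for the a cluster and chromosome 13 for the b cluster.
mmu-miR-27a-3p: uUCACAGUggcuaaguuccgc
mmu-miR-27b-3p: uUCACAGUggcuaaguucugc
mmu-miR-23a-3p: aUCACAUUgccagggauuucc
mmu-miR-24-3p: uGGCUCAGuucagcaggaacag
The miR-27a sequence lies at chr8:84208727-84208747 on the plus strand and the miR-27b sequence at chr13:63300760-63300780 on the plus strand. miR-27a and miR-27b share the seed and differ by C19U (miR-27a first, counted from the 5′ end). Within the seed, miR-27a differs from miR-23a by G7U, so that the 7-base matches to the 2 seeds differ at 1 base, whereas miR-24 has an unrelated seed.

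Single matches to the miR-27 seed are shown for genes that the results below turn on, because all of them lay lower in miR-27 Tg than in DKO (capitals mark the 7 bases complementary to the seed, read on the transcript strand of the longest annotated 3′ UTR in GENCODE M21, GRCm38).
Ppif, chr14:25700160-25700188, plus strand: ccctcctggtcACTGTGAatcctgctggc
Dffb, chr4:153965255-153965283, minus strand: tgaacttggccACTGTGAtgtgtgtgggg
Eid1, chr2:125674314-125674342, plus strand: tttataaagctACTGTGAcctctaatttg
Gsto1, chr19:47864719-47864747, plus strand: catgtctgaaaACTGTGAtttccccatac
Osgin1, chr8:119445298-119445326, plus strand: ttcgggcaggcACTGTGAacccaacctca
Hsdl1, chr8:119563480-119563508, minus strand: gttattttcaaACTGTGAactgggagtgc
Tmbim6, chr15:99409951-99409979, plus strand: ctctaactcatACTGTGAagacaaccgtg
In Ppif, Osgin1, Hsdl1 and Tmbim6 the 7 bases are followed by an A, the base that Argonaute favours opposite the first position of a microRNA. The match starts at base 569 of 866 in the 3′ UTR of Ppif and at base 98 of 921 in that of Dffb. A match is a string of letters and does not show that the site is used.

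Reads at the precursor loci gave a partial check of the labels, although these libraries were built for long RNA and do not measure mature microRNAs. The Mir27a locus (chr8:84208672-84208758) read 76990.6, 79108.3 and 50013.8 RPKM in miR-27 Tg and is listed at 0 in all 3 DKO libraries. In WT it read 347, 145 and 0 RPKM. The Mir23a locus, which lies upstream in the same cluster, read 252, 244 and 88.1 RPKM in miR-27 Tg and is also listed at 0 in all DKO libraries. In WT the Mir23a locus read 61.8, 155 and 0 RPKM. WT library 3 is thus at 0 for both loci, so a 0 does not by itself show a deletion. For both loci miR-27 Tg and DKO did not overlap. The exact permutation test between them (two-sided, 3 against 3) gave p = 0.1, the smallest value it can give. At Mir24-2 the values were 0, 11.3 and 48.95 RPKM against 0, 11.5 and 0 RPKM (exact permutation test, p = 0.7). The loci of the b cluster did not exceed 0.00771 RPKM in any library, WT included, so they gave no check of the deletion there. 2010111I01Rik, the host transcript of the b cluster, read 71.8, 63.2 and 62.7 RPKM in miR-27 Tg, 93.9, 92.2 and 114 in DKO and 62.2, 47.8 and 48.98 in WT, so that the DKO libraries lay above both other groups (-0.60 log2 in miR-27 Tg against DKO, adjusted p = 0.00282). That call ended with library 1 as the only miR-27 Tg library and with the B cell covariate explained below.

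The level of B cell markers separated the groups, and so did some of the other library properties examined. The estimated depth was 22.18 to 32.02 megareads in miR-27 Tg and 27 to 30.93 in DKO. Foxp3 read 328, 289.7 and 197 RPKM in miR-27 Tg and 348, 323 and 312 in DKO, which did not pass the test (adjusted p = 0.192), and the summed level of 8 T cell and Treg markers was 2343 to 2663 RPKM against 2528 to 2672. Of 19 B cell markers tested, 14 were called higher in miR-27 Tg and none lower, with a summed level of 438 to 887 RPKM against 159.6 to 272 in DKO. The defining B cell genes were not at 0: Ms4a1, the B cell antigen CD20, read 2.09, 7.34 and 12.5 RPKM in miR-27 Tg and 0.4897, 0.604 and 0.536 in DKO. The median B cell marker lay 0.62, 1.36 and 2.38 log2 units above the DKO mean in miR-27 Tg libraries 1, 2 and 3, so library 1 is the one nearest to DKO. Y-linked Ddx3y was present in miR-27 Tg libraries 2 and 3 and in DKO library 1, and Xist in the other 3, so neither group was of one sex. The median myeloid marker lay at 0.56 to 2.18 log2 units from the DKO mean in miR-27 Tg and at -0.19 to 0.09 in DKO. For plasma cell markers it was 0.36 to 0.65 against -0.15 to 0.15. Genes at 1 RPKM or more numbered 10993 to 11047 against 10757 to 10902. The medians of CD8 T cell, NK cell, activated conventional CD4 T cell and erythroid or platelet markers overlapped between the groups. In bulk libraries such as these, fewer cells of a type and less RNA per cell cannot be told apart. Results are therefore given also with library 1 as the only miR-27 Tg library, and with the mean B cell marker level as a covariate. No covariate was fitted for the myeloid or plasma cell markers. A fit with 1 miR-27 Tg library has a larger error, so a call lost in it does not show that the gene was lower in library 1 than in the others. The covariate was -0.90, -0.56 and -0.62 in the DKO libraries and -0.04, 0.92 and 1.63 in miR-27 Tg, without overlap. It is thus confounded with genotype and also enlarges the error of the comparison. A call lost with the covariate therefore does not show that B cell RNA made the difference.

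Gain of miR-27 and loss of the clusters separated a large share of the transcriptome. In limma's moderated test with Benjamini-Hochberg adjustment, 1813 genes (15.7% of those tested) were higher and 1464 (12.7%) lower in miR-27 Tg than in DKO at an adjusted p under 0.05. A change of at least 2-fold was reached by 527 of the higher and 144 of the lower genes, and the median size of a called difference was 0.57 on the log2(RPKM + 0.5) scale. The median over all tested genes was 0.01. The 3 miR-27 Tg libraries lay above all 3 DKO libraries for 2398 genes (20.8%) and below them for 2056 (17.8%). Of the genes tested, 140 reached the level filter only through miR-27 Tg libraries and 63 only through DKO libraries. The spread of each gene was taken from all 18 libraries. A fit of the 6 libraries alone gave 953 higher and 711 lower genes. With miR-27 Tg library 1 alone, 583 genes were higher and 355 lower, and with the B cell covariate 474 and 331.

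**Figure D1:**
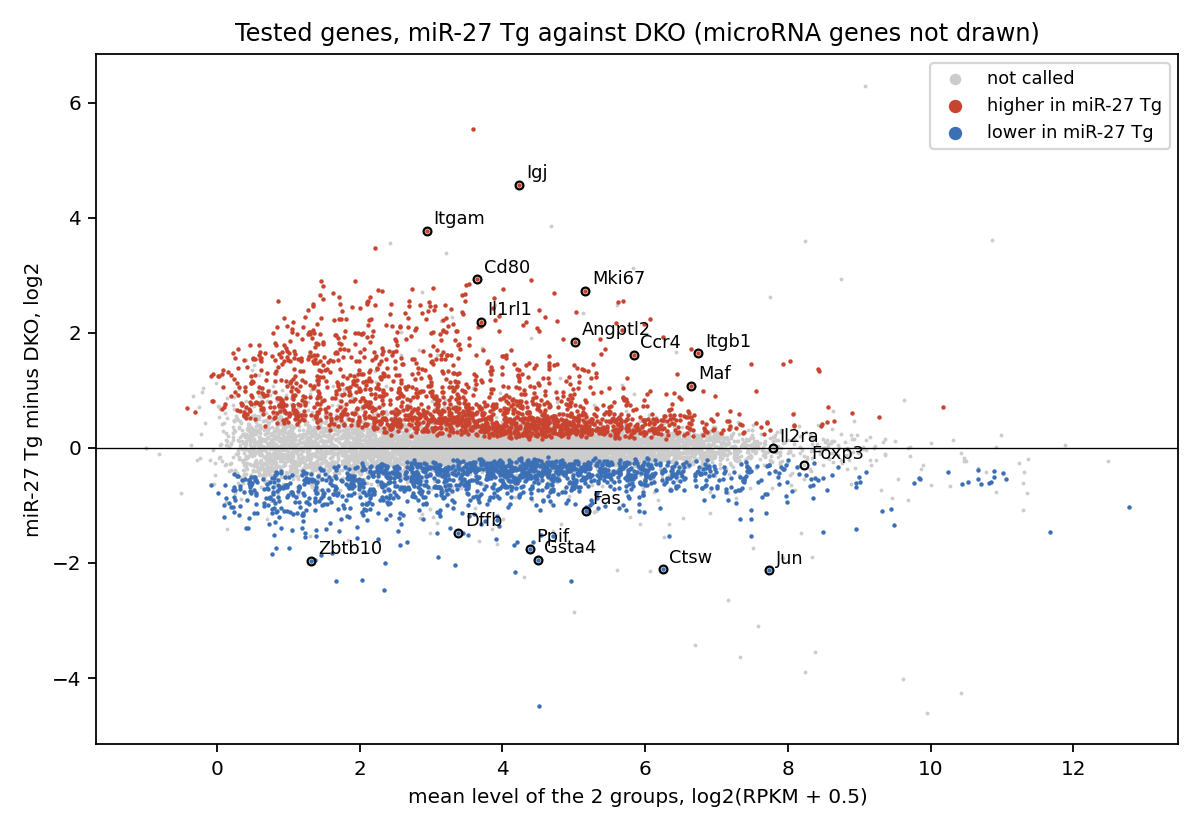
Difference between miR-27 Tg and DKO (log2, vertical axis) against the mean level of the 2 groups (log2(RPKM + 0.5), horizontal axis) for the tested genes, 1 point a gene, with the 1813 higher genes in red and the 1464 lower genes in blue. Large rises reach further from 0 than large falls, and Foxp3 and Il2ra lie among the genes that were not called.

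WT stood closer to DKO than to miR-27 Tg for most of these genes. The WT mean lay nearer to DKO than to miR-27 Tg for 1775 of the 1813 higher genes and for 1426 of the 1464 lower genes. Against WT, miR-27 Tg had 1830 genes higher (15.9%) and 1464 lower (12.7%), whereas DKO against WT had 2 higher (0.0174%) and none lower (0%), with 161 and 93 genes at an unadjusted p under 0.05. The comparisons share libraries, so these counts are set side by side and are not independent. The 2 genes were 2010111I01Rik and Arpc1a, a subunit of the actin-nucleating Arp2/3 complex. Arpc1a read 49.3, 56.5 and 58.3 RPKM in miR-27 Tg, 68.0, 70.0 and 75.2 in DKO and 46.1, 44.4 and 44.9 in WT, without overlap between any pair of groups. Among the overexpressing groups, miR-27 Tg had 386 genes higher (3.35%) and 403 lower (3.5%) than the whole-cluster group. Against miR-23 Tg it had 1431 higher (12.4%) and 1261 lower (10.9%), and against miR-24 Tg 1518 (13.2%) and 1250 (10.9%).

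The genes were then described by seed matches in the 3′ UTR, since miR-27 is the microRNA that is high in one group and removed in the other. The search used the letters ACTGTGA for miR-27, AATGTGA for miR-23 and CTGAGCC for miR-24 on the transcript strand of the longest annotated 3′ UTR, of at least 50 bases. These letters occurred in 16.2%, 15.3% and 16.4% of all 20592 such 3′ UTRs. Of 10174 tested genes with a 3′ UTR, 16.8% were called higher and 12.5% lower. Among the 1734 with at least 1 miR-27 match, 13.7% were higher and 18.5% lower, with a median difference of -0.06 on the log2 scale against 0.02 over all 10174. Among the 631 genes whose match is followed by an A, 11.7% were higher and 24.9% lower, with a median of -0.12. The share lower was not greater with more matches: it was 18.7% of the 1462 genes with 1 match and 16.9% of the 272 genes with 2 or more, whose 3′ UTRs had median lengths of 2083 and 3723 bases.

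The other seeds of the cluster gave shares near those of all genes. Genes with only a miR-23 match were higher in 16.5% and lower in 13.1% (914 genes), and genes with only a miR-24 match in 17.4% and 10.96% (1177 genes). Genes with none of the 3 matches gave 17.7% and 11.2% (6057 genes), and genes with only a miR-27 match 13.3% and 19.5% (967 genes). Longer 3′ UTRs hold more matches by length alone, so the shares were also taken within classes of length. In 3′ UTRs of 50 to under 500 bases, 22.3% of the genes with a miR-27 match and 11.2% of those without were lower, and from 4000 bases up 12.6% and 7.44%. In all 5 classes of length the share was higher among genes with a match. In DKO against WT the median of the genes with a miR-27 match was 0.01 on the log2 scale, against -0.005 over all genes with a 3′ UTR. In miR-27 Tg against WT the same medians were -0.06 and 0.01. With miR-27 Tg library 1 alone, 5.07% of the genes with a miR-27 match and 2.56% of the genes with none of the 3 matches were lower, and with the B cell covariate 4.90% and 2.29%. These shares are descriptions across genes, which are not independent replicates.

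**Figure D2:**
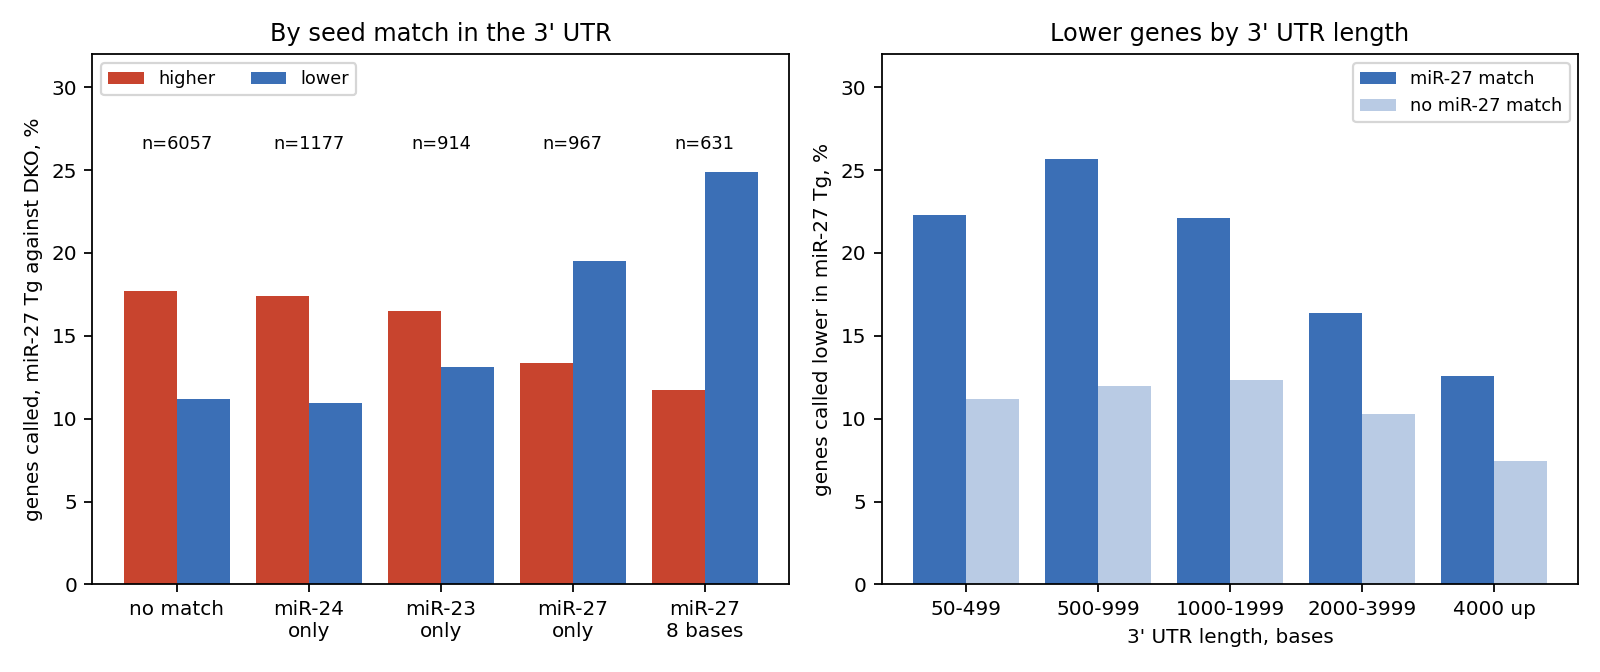
Percent of genes called higher (red) or lower (blue) in miR-27 Tg than in DKO by seed match in the 3′ UTR (left, n genes above the bars), and percent called lower by length of the 3′ UTR with and without a miR-27 match (right). Lower genes outnumber higher genes in the 2 miR-27 classes, up to 24.9% where the match is followed by an A.

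The lower genes with a miR-27 match and the smallest p-values included 2 with roles in cell death. Ppif encodes cyclophilin D, a regulator of the mitochondrial permeability transition pore. It read 10.1, 8.12 and 8.98 RPKM in miR-27 Tg, 28.5, 32.8 and 33.9 in DKO and 25.8, 23.1 and 24.8 in WT, and the groups did not overlap in any pair. It was 3.37-fold lower than in DKO (-1.75 log2, SE 0.09, adjusted p = 5.43e-08). The whole-cluster libraries read 8.77, 9.94 and 8.92 RPKM, at the level of miR-27 Tg (difference -0.02 log2, adjusted p = 0.907), while miR-23 Tg and miR-24 Tg lay above it (-1.07 and -1.37 log2 in miR-27 Tg against each). The 3′ UTR of Ppif also holds 2 matches to the miR-23 seed.

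Dffb encodes the caspase-activated DNase that cuts DNA in apoptosis. Its values were 5.49, 4.74 and 4.84 RPKM in miR-27 Tg, 13.9, 15.5 and 14.9 in DKO and 11.1, 11.3 and 10.9 in WT, again in 3 separate ranges. It was 2.77-fold lower in miR-27 Tg than in DKO (-1.47 log2, SE 0.07, adjusted p = 5.31e-08). Dffb was also lower than in the whole-cluster group by a small margin (-0.29 log2, adjusted p = 0.0292). Eid1, an inhibitor of the acetyltransferase EP300, read 12.97, 12.4 and 13.9 RPKM against 22.5, 23.4 and 24.4 in DKO, a 1.76-fold difference (adjusted p = 5.19e-06). In WT Eid1 lay between the groups at 20.8, 21.3 and 21.4 RPKM.

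The other 3 lower genes named for a match act in redox and lipid metabolism or are less studied. Osgin1, which is induced by oxidative stress, read 8.29, 6.74 and 6.19 RPKM in miR-27 Tg and 21.4, 21.9 and 22.8 in DKO (2.997-fold lower, adjusted p = 9.81e-06). Gsto1, a glutathione transferase, read 23.3, 26.4 and 19.6 RPKM against 50.7, 46.8 and 50.7 (2.13-fold lower, adjusted p = 1.22e-05). Hsdl1, a hydroxysteroid dehydrogenase-like protein, read 19.9, 18.6 and 20.7 RPKM against 40.4, 38.3 and 37.6 (1.94-fold lower, adjusted p = 1.22e-05). In none of these 3 genes did the miR-27 Tg libraries overlap with DKO or WT. All 3 were lower than in miR-23 Tg (-1.06, -0.61 and -0.995 log2), and none of the differences from the whole-cluster group passed the test (adjusted p = 0.246, 0.393 and 0.297). Osgin1 did not pass the test against miR-24 Tg either (adjusted p = 0.176).

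A miR-27 match also occurred in genes that were higher. Cdc25b, the phosphatase that activates cyclin-dependent kinases at entry into mitosis, read 44.7, 59.4 and 61.9 RPKM against 22.01, 24.2 and 22.8 in DKO (2.35-fold higher, adjusted p = 9.81e-06). Ctnnd1, the cadherin-binding p120 catenin, read 8.03, 4.81 and 4.58 RPKM against 0.729, 0.642 and 0.52 (5.44-fold higher, adjusted p = 1.53e-05). Chdh, the choline dehydrogenase of mitochondria, read 8.71, 6.11 and 6.57 RPKM against 1.62, 2.11 and 1.84 (3.22-fold higher, adjusted p = 3.87e-05). In each of the 3 genes the match is followed by an A, as in Ppif.

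Of 20 tested genes that earlier work has described as targets of miR-27, 6 were lower (30%, against 12.7% of all genes tested) and 1 higher (5%, against 15.7%) in miR-27 Tg. Their median was -0.25 on the log2 scale, against 0.01 over all genes. Zbtb10, a zinc finger repressor, read 0.789, 0.379 and 0.3797 RPKM in miR-27 Tg and 4.25, 3.98 and 2.24 in DKO, without overlap (3.88-fold lower, adjusted p = 0.000318). It was also lower than in the whole-cluster group (-1.10 log2, adjusted p = 0.0364), and its longest annotated 3′ UTR held no 7-base miR-27 match. Tgfbr1, the kinase receptor of TGF-beta, read 28.4, 24.3 and 24.1 RPKM against 42.6, 35.6 and 38.3 (1.51-fold lower, adjusted p = 0.00504). Phb, the mitochondrial scaffold prohibitin, was 1.35-fold lower (adjusted p = 0.00925), and the cholesterol exporter Abca1 2.25-fold lower (adjusted p = 0.0145). The mitophagy kinase Pink1 was 1.29-fold lower (adjusted p = 0.0414) and Foxo1, which drives genes of resting T cells, 1.21-fold lower (adjusted p = 0.0467). The nuclear receptor Rxra was 1.52-fold higher (adjusted p = 0.0163).

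Several of these calls were not stable. Without miR-27 Tg library 2 or without library 3, 3 of the 20 were lower. Leaving out miR-27 Tg library 2 or 3 or DKO library 1 ended the call of Abca1 (adjusted p = 0.0664, 0.0669 and 0.0604). Leaving out any single library except DKO library 3 ended that of Foxo1 (adjusted p from 0.0597 to 0.178). The call of Pink1 ended without miR-27 Tg library 2 or 3 or DKO library 2 or 3 (adjusted p from 0.119 to 0.159), and that of Rxra without miR-27 Tg library 3 or DKO library 3 (adjusted p = 0.0536 and 0.0653). A fit of the 6 libraries alone kept 2 of the lower members, and Phb, Abca1, Pink1 and Foxo1 did not pass in it. With miR-27 Tg library 1 alone, or with the B cell covariate, 1 member of the list was lower, Zbtb10, and none higher. Members that did not pass the test included Rel, Il10, Gata3, Runx1 and Ctla4. Rel, an NF-kB subunit needed for Treg development, read 24.8, 23.9 and 17.9 RPKM in miR-27 Tg and 41.1, 36.9 and 19.5 in DKO (adjusted p = 0.257). The cytokine Il10 read 17.5, 15.9 and 8.24 RPKM against 18.8, 46.1 and 18.4, with all miR-27 Tg libraries below DKO (adjusted p = 0.188). The transcription factors Gata3 and Runx1 and the inhibitory receptor Ctla4 differed by 0.22, -0.05 and -0.26 log2 (adjusted p = 0.611, 0.794 and 0.375).

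Targets described for the other 2 members were counted as well, since DKO removes those microRNAs too. Of 14 tested miR-23 targets, 3 were lower (21.4%) and 2 higher (14.3%), counts near those of all genes for a list of this length. Besides Ppif, Fas was among them, the death receptor of lymphocytes, with 23.8, 21.4 and 22.1 RPKM in miR-27 Tg and 51.4, 46.8 and 47.1 in DKO (2.13-fold lower, SE 0.08 log2, adjusted p = 1.69e-06). WT read 53.6, 54.2 and 54.8 RPKM. Fas was lower in miR-27 Tg than in each other overexpressing group, by -0.77 log2 against the whole cluster (adjusted p = 0.000106), and its longest 3′ UTR held no miR-27 match. Xiap, an inhibitor of caspases, was 1.32-fold higher (adjusted p = 0.00257). Of 15 miR-24 targets, 8 were higher (53.3%, against 15.7% of all genes) and 1 lower (6.67%, against 12.7%). Several of the higher ones are cell cycle genes, such as Ccna2 and E2f2. Without miR-27 Tg library 2 or DKO library 1, 5 were higher, and without miR-27 Tg library 3, 4. Myc, the lower one, read 52.2, 60.4 and 41.1 RPKM against 75.2, 68.9 and 82.3 (adjusted p = 0.00446). With the B cell covariate, and in a fit of the 6 libraries alone, Xiap and Myc did not pass the test, and Xiap did not pass with library 1 alone.

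**Figure D3:**
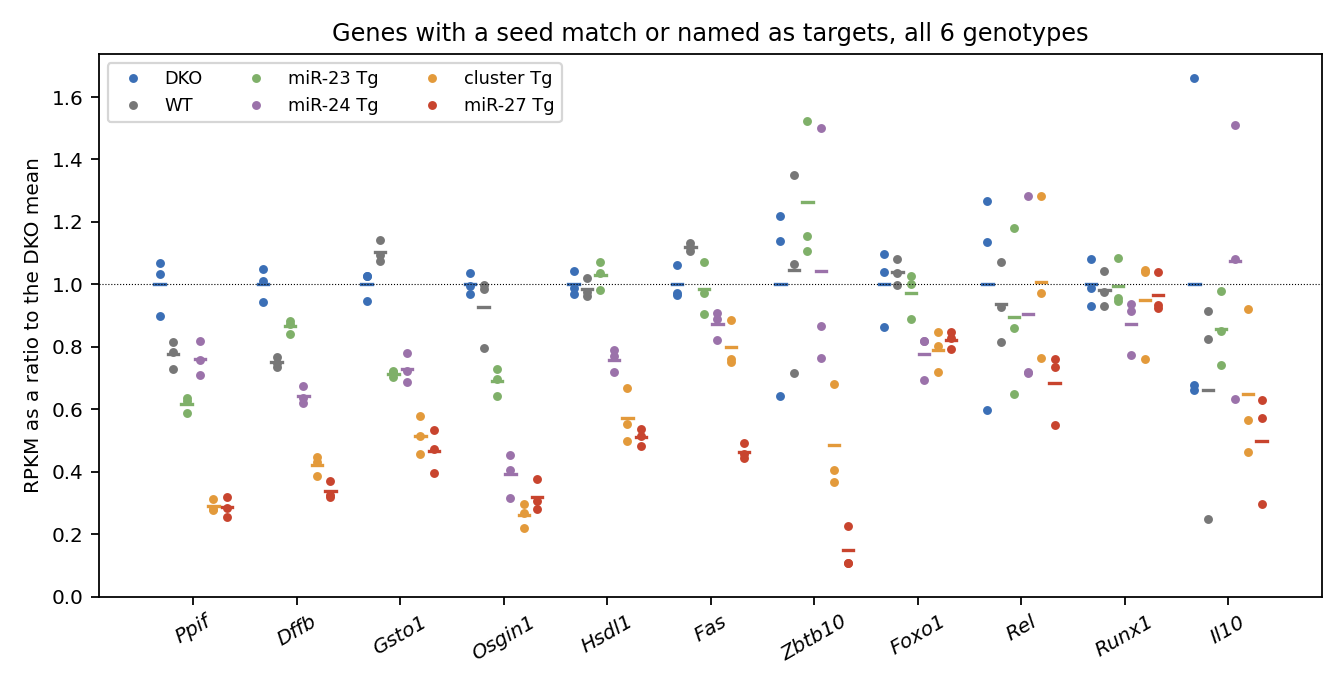
RPKM as a ratio to the DKO mean (vertical axis) for genes with a miR-27 seed match or described as targets, 1 point a library and a bar at each group mean, in all 6 genotypes. Ppif, Dffb, Gsto1, Osgin1 and Hsdl1 lie low in miR-27 Tg and cluster Tg, Fas lies lowest in miR-27 Tg, and Runx1 overlaps between miR-27 Tg and DKO.

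A graded order, with miR-27 Tg, WT and DKO in 3 ranges that do not overlap, was seen for few genes. The order from low in DKO to high in miR-27 Tg held for 69 genes (0.599%), of which 64 were called. The opposite order held for 57 (0.495%), of which 54 were called. Without overlap between miR-27 Tg and DKO there were 1722 called higher and 1384 called lower genes, so few of them were in order. How many would fall in order by chance was not tested. The genes below were chosen for separate ranges, so their order is no test of a step between DKO and WT. Besides Ppif, Dffb and Eid1, the lower genes of the smallest p in this order were Colq, Poli and Tmbim6. Colq, the collagen tail that anchors acetylcholinesterase, read 3.84, 3.01 and 2.52 RPKM in miR-27 Tg, 11.4, 10.6 and 10.6 in WT and 13.7, 12.6 and 12.4 in DKO. Poli, a DNA polymerase for damaged templates, read 12.7, 12.4 and 11.9, 17.9, 17.3 and 18.4 and 20.2, 18.6 and 18.8 RPKM. Tmbim6, an inhibitor of cell death in the endoplasmic reticulum, read 147, 131 and 149, 223, 217 and 221 and 239.5, 254 and 276 RPKM. The step from WT to miR-27 Tg was the larger one in each of these genes, and none passed the test between DKO and WT.

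In the other direction the order was led by Alcam, Nrn1, Gstt3, Tnfsf11, Endod1 and Dgcr8. Alcam, an adhesion molecule that binds CD6 on T cells, read 8.799, 8.09 and 8.396 RPKM in miR-27 Tg, 2.77, 2.86 and 3.24 in WT and 2.58, 2.76 and 2.19 in DKO (2.97-fold, adjusted p = 4.97e-06). Tnfsf11, the cytokine RANKL, read 50.1, 43.9 and 46.3, 23.1, 21.3 and 21.1 and 18.98, 19.5 and 19.5 RPKM (2.38-fold, adjusted p = 2.11e-05). Nrn1, neuritin, which is found on Treg and anergic T cells, read 135, 96.6 and 98.5, 39.1, 33.8 and 28.5 and 18.7, 28.2 and 21.5 RPKM (4.75-fold, adjusted p = 1.71e-05). Dgcr8, the partner of Drosha in cutting microRNA precursors, read 21.6, 25.2 and 24.2, 15.03, 15.2 and 16.02 and 14.4, 14.6 and 13.2 RPKM (1.66-fold, adjusted p = 1.37e-05). Gstt3 and Endod1 were 3.24-fold and 2.08-fold higher in miR-27 Tg than in DKO.

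**Figure D4:**
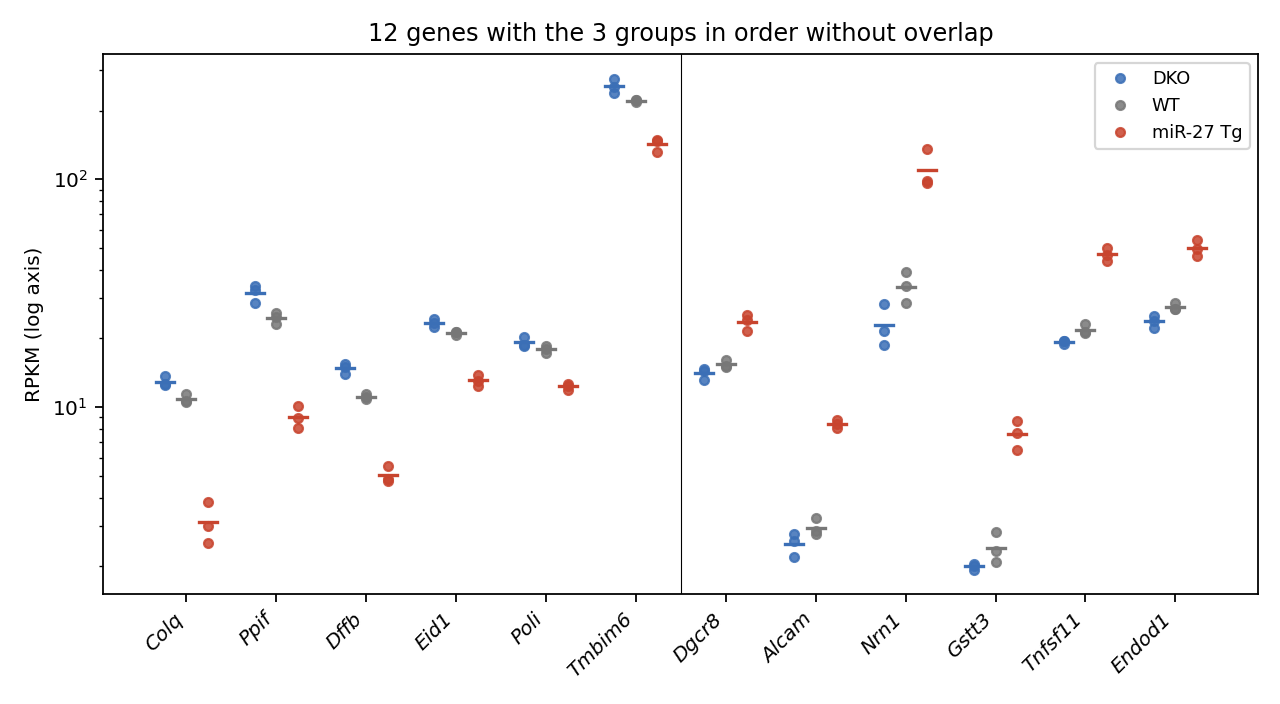
RPKM on a log axis for 12 called genes, 1 point a library and a bar at each mean. They were chosen because their DKO (blue), WT (grey) and miR-27 Tg (red) libraries form 3 separate ranges. In the 6 falling and the 6 rising genes WT lies nearer to DKO than to miR-27 Tg.

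Genes were also named for the smallest p in either direction, a choice that favours genes with little spread between libraries. Zdhhc2, a palmitoyltransferase, read 23.9, 26.1 and 22.3 RPKM against 7.31, 8.88 and 7.45 in DKO (2.94-fold, adjusted p = 5.56e-07). Ppic, cyclophilin C, read 12.99, 14 and 13.7 RPKM against 1.49, 2.39 and 2.296 (5.56-fold, adjusted p = 7.15e-07). Luzp1, a protein of the actin cytoskeleton, read 5.93, 5.17 and 5.62 RPKM against 1.41, 1.45 and 1.37 (3.18-fold, adjusted p = 8.43e-07). Luzp1 was higher in miR-27 Tg than in the whole-cluster, miR-23 and miR-24 groups too, by 1.36, 2.01 and 1.75 log2. Nynrin was 4.03-fold higher (adjusted p = 1.81e-06), and the tetraspanin Tspan9 3.604-fold lower (adjusted p = 4.97e-06). None of these 5 genes had a 7-base miR-27 match.

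The genes with the largest rises included Itgam, Cd80 and Igj. Itgam, the integrin CD11b of myeloid cells and of some activated lymphocytes, read 16.01, 13.7 and 11.8 RPKM in miR-27 Tg and 0.338, 0.737 and 0.578 in DKO (13.7-fold, adjusted p = 4.97e-06). It was as high in miR-27 Tg library 1 as in the others, and it passed the test in each alternative. Cd80, a ligand of CD28 and Ctla4, read 18.3, 23.8 and 22.6 RPKM against 2.94, 2.79 and 1.59 (7.64-fold, adjusted p = 3.15e-05). Igj, the joining chain of secreted antibodies, read 5.22, 20.7 and 83.01 RPKM against 0.319, 0.6202 and 0.314 (23.9-fold, adjusted p = 0.00206), lowest in library 1 as the B cell markers were. S100a8, a calcium-binding protein of neutrophils, read 0.632, 14.6 and 9.73 RPKM and is listed at 0 in all 3 DKO libraries.

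Cdkn2a, the locus of the cell cycle inhibitors p16 and p19Arf, read 3.12, 3.84 and 6.32 RPKM against 0.371, 0.203 and 0 (7.05-fold, adjusted p = 0.000453). Fads2, a fatty acid desaturase, read 1.57, 5.02 and 6.58 RPKM against 0.129, 0.0677 and 0.0508 (7.45-fold, adjusted p = 9.81e-05). Lgals7, Mxd3, Ly6c2, Kif11 and Slpi completed the 12 largest rises with Ccna2, at 6.82-fold to 7.59-fold. Without miR-27 Tg libraries 2 and 3, or with the B cell covariate, Igj, S100a8, Slpi, Mxd3, Ly6c2 and Kif11 did not pass the test. The call of S100a8 also ended when any single library other than miR-27 Tg library 1 was left out (adjusted p from 0.0711 to 0.145).

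Falls of the largest size were found in a smaller set of genes. Ctsw, a cathepsin of cytotoxic lymphocytes, read 30.5, 20.2 and 34.3 RPKM in miR-27 Tg and 116, 104 and 147 in DKO (4.32-fold lower, adjusted p = 3.91e-05). Gsta4, a glutathione transferase for lipid peroxidation products, read 8.77, 10.3 and 7.35 RPKM against 33.7, 31.5 and 40.5 (3.86-fold lower, adjusted p = 0.00273). Tnnt2, cardiac troponin T, read 0.483, 0.702 and 0.507 RPKM against 5.42, 4.24 and 4.72 (4.97-fold lower, adjusted p = 0.0001). Arhgap20, a GTPase-activating protein, and Sh3bgrl2 were 4.902-fold and 3.98-fold lower, and each had 1 miR-27 match. Scg5, a chaperone of secretory granules, was 3.62-fold lower. The non-coding transcript Gt(ROSA)26Sor of the Rosa26 locus read 3.96, 3.38 and 3.06 RPKM against 15.2, 13.97 and 18.2 (4.104-fold lower, adjusted p = 5.44e-05), and it did not differ past the threshold from the other 3 overexpressing groups (adjusted p = 0.191, 0.0704 and 0.341).

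The immediate-early genes Jun and Rhob and the small nucleolar RNA host Snhg9 fell as well. Jun, a subunit of AP-1, read 151, 79.5 and 34.9 RPKM against 294, 434 and 281 (4.37-fold lower, adjusted p = 0.0121), with the miR-27 Tg libraries spread over a wide range. Rhob was 4.47-fold and Snhg9 5.53-fold lower (adjusted p = 0.012 and 0.00427). Leaving out miR-27 Tg library 3 ended the calls of Jun and Rhob (adjusted p = 0.0636 and 0.0576). With library 1 as the only miR-27 Tg library, or with the B cell covariate, Jun, Rhob, Snhg9 and Gsta4 did not pass the test.

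Cell division genes were higher as a group. Of 48 cell cycle genes tested, 45 were higher (93.8%, against 15.7% of all genes) and none lower (against 12.7%). Their median was 2.01 on the log2 scale against 0.01 over all genes. Members of this and the other gene lists were chosen with earlier results of these data known. The counts therefore describe the lists and are no test. Mki67, the proliferation marker Ki-67, read 31.9, 82.7 and 71.7 RPKM in miR-27 Tg and 6.45, 9.604 and 9.01 in DKO, without overlap (6.63-fold, adjusted p = 8.82e-05). Ccna2, cyclin A2, read 17.5, 53.4 and 40.3 RPKM against 2.57, 4.19 and 5.78 (7.59-fold), and Foxm1, the transcription factor of late cell cycle genes, 8.47, 18.3 and 15.5 RPKM against 2.25, 2.88 and 3.71 (4.11-fold). Kif4 and Prc1, which act in the central spindle, were 5.03-fold and 6.08-fold higher. Mki67 was also higher than in miR-23 Tg and miR-24 Tg (1.23 and 1.59 log2), and the difference of 0.92 log2 from the whole-cluster group did not pass the test (adjusted p = 0.109).

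The size of this difference varied with the library. The median cell cycle gene lay 1.14, 2.44 and 2.29 log2 units above the DKO mean in miR-27 Tg libraries 1, 2 and 3. A rise over DKO was not confined to miR-27 Tg. The same median was 1.07, 0.99 and 1.15 for the whole-cluster libraries and 1.17, 1.20 and 1.09 for those with miR-23 overexpressed. Library 1 of miR-27 Tg thus lay at the level of both groups, and libraries 2 and 3 above them. Overexpression of miR-24 gave 0.55, -0.02 and 0.995. Keeping library 1 as the only miR-27 Tg library gave a median of 1.14, with 6 members called, and the B cell covariate a median of 1.36, with 8 called. The summed level of the list was 1194 to 2152 RPKM in miR-27 Tg and 673 to 952 in DKO. The part of the B cell markers in the difference was not tested beyond these values.

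Ribosomal protein genes moved the opposite way. Of 49 genes of the cytosolic ribosome, 30 were lower (61.2%, against 12.7% of all genes) and none higher (against 15.7%). Their median was -0.51 on the log2 scale. Rps15a read 52.9, 44.4 and 45.6 RPKM in miR-27 Tg and 103, 92.1 and 102 in DKO (2.07-fold lower, adjusted p = 9.36e-05), and WT was at 112, 109 and 103 RPKM. Rps24, Rpl23 and Rpl3 were 1.65-fold, 1.65-fold and 1.44-fold lower, of which Rps24 and Rpl23 did not pass with library 1 alone and Rpl23 and Rpl3 not with the B cell covariate. In the whole-cluster libraries the median of the list lay -0.53, -0.43 and -0.04 log2 units from the DKO mean. It lay at -0.27, -0.12 and -0.01 in miR-24 Tg and at -0.03, 0.08 and -0.10 in miR-23 Tg. The median of the list was nearly the same in each miR-27 Tg library, at -0.51, -0.52 and -0.46 log2 units from the DKO mean. The median remained -0.51 with library 1 alone, where 3 members were called, and with the B cell covariate the median was -0.51 and 2 were called. The number called fell to 16 without miR-27 Tg library 2, to 19 without DKO library 2 and to 13 without DKO library 3. Ribosomal protein genes have many processed pseudogene copies, and how reads shared with them were assigned is not given in the sources used here.

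Genes of Treg identity were mixed. Of 27 tested, 9 were lower (33.3%, against 12.7% of all genes) and 4 higher (14.8%, against 15.7%), with a median of -0.26 on the log2 scale. Il2rb, the receptor chain shared by IL-2 and IL-15, read 404, 431 and 309 RPKM against 647, 568 and 603 in DKO (1.602-fold lower, adjusted p = 0.00143). Ikzf1, the transcription factor Ikaros, read 67.2, 78.5 and 80.7 RPKM against 115, 111 and 104 (1.46-fold lower, adjusted p = 0.000316), and it has 1 miR-27 match. The chromatin organiser Satb1 and the matrix protein Ecm1 were 1.78-fold and 1.61-fold lower. Il2ra, the CD25 on which the cells were sorted, read 236, 255 and 172 RPKM against 232, 189 and 241 (adjusted p = 0.984). Ikzf2, the transcription factor Helios, read 141, 105 and 96.9 RPKM against 116, 86.2 and 89.3 (adjusted p = 0.283), so both overlapped between the groups. The median of the list was -0.03 with library 1 alone, where 4 members were lower, and with the B cell covariate 2 were lower, and Il2rb and Ecm1 no longer passed with that covariate. The number lower was 4 without miR-27 Tg library 3.

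More listed genes of effector Treg, the activated and tissue-homing state, were higher than lower. Of 34 tested, 21 were higher (61.8%, against 15.7% of all genes) and 2 lower (5.88%, against 12.7%). Their median was 0.65 on the log2 scale. As in the other lists, the members were chosen with earlier results of these data known, so the count is a description. Itgb1, the integrin beta-1 chain, read 141, 145 and 202 RPKM against 49.2, 55.5 and 48.4 in DKO (3.13-fold, adjusted p = 2.32e-05). Ccr4, a receptor for homing to skin and lung, read 78.1, 94 and 84.4 RPKM against 19.9, 29.7 and 34.4 (3.08-fold, adjusted p = 5.7e-05). Il1rl1, the IL-33 receptor ST2, read 25.3, 18.5 and 18.4 RPKM against 3.63, 5.84 and 3.24 (4.56-fold, adjusted p = 0.0001). In these 3 genes no miR-27 Tg library overlapped with DKO, and library 1 was the highest of them in Il1rl1. A rise over DKO was not confined to miR-27 Tg here either. In the whole-cluster libraries the median of the list lay 0.85, 0.85 and 0.51 log2 units from the DKO mean. It lay at 0.54, 0.54 and 0.27 in miR-24 Tg and at -0.03, -0.05 and -0.03 in miR-23 Tg. The median of the list lay 0.78, 0.71 and 0.83 log2 units above the DKO mean in miR-27 Tg libraries 1, 2 and 3, a narrow range beside that of the B cell markers. In the fit with library 1 alone 12 members were higher, with a median of 0.78, and with the B cell covariate 10, with a median of 0.74.

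The list of resting T cell genes gave 10 lower (45.5%) and 3 higher (13.6%) of 22, against 12.7% and 15.7% of all genes. Its median was -0.28. Ccr7, the receptor for entry into lymph nodes, read 88.7, 106 and 101 RPKM against 167, 201 and 189 (1.88-fold lower, adjusted p = 0.000208). Foxp1, a transcription factor of quiescence, was 1.52-fold lower (adjusted p = 0.000483), and Tdrp and Nsg2 2.95-fold and 1.57-fold lower. Of 19 genes used by Treg for suppression, 6 were higher (31.6%) and 3 lower (15.8%), against 15.7% and 12.7% of all genes. Their median was 0.06. Ebi3, a chain of IL-35 and IL-27, read 53.99, 44.7 and 42.5 RPKM against 13.5, 18.5 and 21.8 (2.61-fold, adjusted p = 0.000361). Lgals1, galectin-1, and the inhibitory receptor Tigit were 2.59-fold and 1.99-fold higher. The protease Gzmb read 3.49, 10.5 and 13.8 RPKM against 21.8, 34.6 and 23.2 (3.09-fold lower, adjusted p = 0.00959), while WT lay at 12.02, 14.99 and 11.4 RPKM. Lgals1 and Tigit did not pass the test with library 1 alone or with the B cell covariate, Nsg2 did not pass with that covariate, and Gzmb did not pass in a fit of the 6 libraries alone.

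In lists of helper T cell programmes the higher members outnumbered the lower ones. The counts were 7 higher and 1 lower of 19 for Th1 and 6 and 2 of 12 for Th2. They were 9 and 0 of 16 for Th17 and 11 and 0 of 16 for follicular T cells. The medians were 0.48, 0.91, 0.74 and 0.73. In the same order 36.8%, 50%, 56.2% and 68.8% were higher, against 15.7% of all genes. Lower were 5.26%, 16.7%, 0% and 0%, against 12.7% of all genes. In the whole-cluster libraries these medians also lay above the DKO mean. They were 1.70, 0.94 and 0.38 log2 units for Th1 and 1.05, 1.04 and 0.27 for Th2. For Th17 they were 0.79, 0.70 and 0.10, and for the follicular list 0.71, 0.73 and 0.47. The lists share members, so the counts are not independent. Among the higher genes, Maf, Irf4, Batf and Ccr6 of Th17 are also effector Treg genes. So are Ccr4 and Il1rl1 of Th2, Cxcr3 of Th1, and Maf, Icos and Pdcd1 of the follicular list. Of the Th17 list, Batf and Irf4, which act together on DNA, read 175, 161 and 156 and 65.9, 61.5 and 59.6 RPKM in miR-27 Tg and 74.8, 90.2 and 99.5 and 41.6, 46.7 and 42.8 in DKO (1.87-fold and 1.42-fold, adjusted p = 0.000223 and 0.000211). Maf, a factor of IL-10 and IL-4 producing cells, read 134, 137 and 132 RPKM against 51.99, 70.96 and 69.8 (2.11-fold, adjusted p = 0.000113). Ccl20, a chemokine that attracts lymphocytes, read 8.88, 10.7 and 15.7 RPKM against 1.69, 1.38 and 1.83 (5.62-fold, adjusted p = 3.35e-05). Irf4 was higher in miR-27 Tg than in each other overexpressing group, by 0.62, 0.49 and 0.59 log2 against whole cluster, miR-23 and miR-24, and its 3′ UTR has 1 miR-27 match.

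Of the follicular list, Angptl2 read 49, 53 and 48.8 RPKM against 11.98, 14.2 and 14.8 (3.59-fold, adjusted p = 5.19e-06), and Cebpa, a transcription factor better known from myeloid cells, 9.95, 8.77 and 11.1 RPKM against 2.03, 2.79 and 1.89 (3.83-fold, adjusted p = 9.81e-06). The costimulatory receptor Icos was 1.56-fold higher. Of the Th1 list, Il18r1 and Il18rap, the 2 chains of the IL-18 receptor, were 2.32-fold and 2.46-fold higher, and the granzyme Gzmk 5.57-fold. Of the Th2 list, Il17rb, the IL-25 receptor, and Epas1 were 2.85-fold and 4.04-fold higher. The higher counts in the same order were 3, 5, 8 and 4 with library 1 alone, and with the B cell covariate 3, 5, 6 and 6. Of the follicular genes, 7 were higher without miR-27 Tg library 3. Icos did not pass the test in either of these fits.

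Chemokine and migration receptors gave 12 higher (46.2%) and 3 lower (11.5%) of 26, against 15.7% and 12.7% of all genes. Their median was 0.47. The median also lay above the DKO mean in the whole-cluster libraries (0.56, 0.50 and 0.43 log2) and in miR-24 Tg (0.88, 0.43 and 0.28). In miR-23 Tg it was 0.01, -0.12 and -0.10. Besides Ccr4 and Itgam, Gpr183, a receptor for oxysterols that positions lymphocytes, read 46.5, 37.4 and 37.2 RPKM against 17.4, 18.5 and 17.1 (2.24-fold, adjusted p = 5.59e-05).

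Of 24 immediate-early genes of T cell receptor signalling, 17 were not called, 5 were lower (20.8%, against 12.7% of all genes) and 2 higher (8.33%, against 15.7%), with a median of -0.77. The libraries spread widely, with the median member at -0.30, -0.61 and -1.40 log2 units from the DKO mean in miR-27 Tg libraries 1, 2 and 3. The DKO libraries lay at 0.06, 0.47 and -0.51 and the WT libraries at 0.21, 0.11 and -0.59, so the groups overlapped. Library 3 was the lowest in each of these groups, and within each library number miR-27 Tg lay below DKO. The list of dissociation or stress genes was also lowest in miR-27 Tg library 3, at 0.03, -0.07 and -0.71 in miR-27 Tg against -0.15, 0.17 and -0.0045 in DKO, and its part in these differences was not tested. Egr2 and Egr3, which restrain T cell activation, read 31.5, 26.8 and 30.2 and 20.6, 18.6 and 19.1 RPKM in miR-27 Tg and 18.02, 16.1 and 17.4 and 13.6, 11.7 and 11.9 in DKO (1.695-fold and 1.55-fold higher, adjusted p = 0.000318 and 0.000162). Dusp2, a phosphatase of MAP kinases, read 130.0, 128 and 85.5 RPKM against 235, 289 and 199.9 (2.12-fold lower, adjusted p = 0.000318). With the B cell covariate the median of the list was 0.09, and 1 member was lower and 2 higher. Leaving out miR-27 Tg library 3, 2 members were lower, and 3 without DKO library 1 or 2.

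Of 26 NF-kB pathway genes, 4 were higher (15.4%) and 3 lower (11.5%), with a median of -0.14. These shares are near those of all genes tested (15.7% and 12.7%), so the counts are no result about the pathway, and its members are given singly. Birc3, an ubiquitin ligase of the pathway and inhibitor of apoptosis, read 39.99, 41.1 and 36.03 RPKM against 70.04, 66.1 and 61.7 (1.68-fold lower, adjusted p = 8.82e-05), and Malt1, the paracaspase, 61.5, 52.3 and 45.03 RPKM against 38.2, 41.8 and 33.5 (1.39-fold higher, adjusted p = 0.0122). Malt1 did not pass in a fit of the 6 libraries alone. Between 1 and 6 NF-kB genes were lower when single libraries were left out, with 1 without miR-27 Tg library 3 or DKO library 1 and 6 without miR-27 Tg library 1. Of 27 apoptosis genes, 7 were higher and 7 lower (25.9% each, against 15.7% and 12.7% of all genes), and 4 were higher without miR-27 Tg library 2 or 3 or DKO library 1 or 2. Fas, Ppif and Birc3 were among the lower members.

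Of 25 TGF-beta pathway genes, 7 were lower (28%) and 4 higher (16%), against 12.7% and 15.7% of all genes, with a median of -0.08. Besides the receptor Tgfbr1, the inhibitory Smad7 read 27.5, 24.8 and 21.3 RPKM against 53.1, 56.5 and 38.6 (1.98-fold lower, adjusted p = 0.00128), and Smad1 was 1.63-fold lower. The ligand Tgfb3 read 1.51, 2.904 and 3.81 RPKM against 0.254, 0.167 and 0.208 (4.36-fold higher, adjusted p = 0.00093), and Itgav, an integrin chain that activates latent TGF-beta, was 1.39-fold higher. Tgfb3 did not pass with library 1 alone, nor Itgav with the B cell covariate. None of the list was lower with library 1 alone or with the B cell covariate, so Tgfbr1, Smad7 and Smad1 did not pass. Leaving out miR-27 Tg library 3 or DKO library 1 gave 4 lower genes. Interferon response genes gave 18 higher (34.6%, against 15.7% of all genes) and none lower (against 12.7%) of 52, with a median of 0.22. Ifitm2, a membrane protein that restricts virus entry, read 33.5, 36.7 and 38.2 RPKM against 6.59, 8.83 and 10.2 (4.11-fold, adjusted p = 6.61e-05). Ifih1 and Eif2ak2, sensors of double-stranded RNA, were 1.83-fold and 1.65-fold higher, and Ifi204 4.79-fold. Without DKO library 2, 11 interferon genes were higher. In this list WT lay below DKO, at -0.20, -0.30 and -0.29 log2 units from the DKO mean, with no member called between them. Against WT, miR-27 Tg had 32 members higher and a median of 0.50. The whole-cluster libraries lay 0.48, 0.32 and 0.18 log2 units above the DKO mean.

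Metabolic genes changed in part. Of 22 glycolysis genes, 11 were higher (50%, against 15.7% of all genes) and 4 lower (18.2%, against 12.7%), with a median of 0.35. Aldoc, an aldolase, read 11.2, 9.27 and 8.23 RPKM against 2.54, 3.18 and 3.14 (2.91-fold higher, adjusted p = 8.82e-05), and Pdk1, which holds pyruvate back from the mitochondria, 14.8, 12.8 and 15.4 RPKM against 33.9, 29.5 and 29.1 (2.11-fold lower, adjusted p = 2.14e-05). The glucose transporter Slc2a3 was 1.39-fold lower and the hexokinase Hk1 1.31-fold higher, and neither passed with the B cell covariate, nor Slc2a3 with library 1 alone. With library 1 alone 2 members of the list were higher, without miR-27 Tg library 2, 4, without DKO library 1, 5, and without miR-27 Tg library 3 or DKO library 2, 7. Of 31 oxidative phosphorylation genes 1 was higher (3.23%) and none lower, and of 21 cholesterol synthesis genes 3 were higher (14.3%) and none lower. Of all genes tested, 15.7% were higher and 12.7% lower, so neither list held more calls than that. The medians of these lists were 0.06 and 0.23. Without miR-27 Tg library 1, which has the lowest levels of both lists among the 3, 5 and 6 of them were higher.

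Of 23 genes of glutathione metabolism and the Nrf2 response, 6 were higher (26.1%) and 4 lower (17.4%), against 15.7% and 12.7% of all genes. Of these genes, 1 or 2 were higher without miR-27 Tg library 2 or 3 or DKO library 1. Beside the lower Gsto1, Gsta4 and Ppif, the quinone reductase Nqo1 read 1.22, 2.72 and 1.58 RPKM against 0.424, 0.415 and 0.393 (2.48-fold higher, adjusted p = 0.00108), and did not pass with library 1 alone. Of 13 genes of the microRNA machinery, 3 were higher (23.1%) and none lower, against 15.7% and 12.7% of all genes. Dgcr8 was first by p. The RNA-binding protein Tarbp2 and the exporter Xpo5 were 1.37-fold and 1.28-fold higher (adjusted p = 0.00907 and 0.0147). Leaving out miR-27 Tg library 2 or DKO library 3 ended the call of Xpo5 (adjusted p = 0.0653 and 0.062). Neither Tarbp2 nor Xpo5 passed with library 1 alone, with the B cell covariate or in a fit of the 6 libraries alone.

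Markers of other cell types than Treg were higher in several lists. Beside the 14 of 19 B cell markers (73.7%), 5 of 9 plasma cell markers (55.6%) and 6 of 14 myeloid markers (42.9%) were higher. Of all genes tested, 15.7% were higher and 12.7% lower. The plasma cell and myeloid medians were 0.51 and 1.25, and 1 myeloid marker, Ctss, was lower. The summed myeloid level was 357 to 465 RPKM in miR-27 Tg and 364 to 446 in DKO, of which Ctss alone made up 246, 184 and 214 and 271, 248 and 312 RPKM. Lyz2, lysozyme of myeloid cells, read 5.65, 17.5 and 31.3 RPKM against 1.58, 3.97 and 2.48 (5.03-fold, adjusted p = 0.0199). Of 7 NK cell markers 3 were higher and 1 lower, and of 6 CD8 T cell markers 2 and 1, with Cd8a at 2.98, 2.47 and 6.56 RPKM against 1.29, 1.59 and 1.27. Of 7 markers of activated conventional CD4 T cells, 3 were higher, among them Il4 at 6.01, 4.15 and 8.57 RPKM against 1.798, 1.88 and 1.59 (2.88-fold, adjusted p = 0.0151).

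Levels in miR-27 Tg library 1 differed between these lists. The median marker was lowest in library 1 of the 3 for myeloid (0.56, 1.0 and 2.18 log2 units above the DKO mean in libraries 1, 2 and 3), plasma cell (0.36, 0.49 and 0.65) and CD8 T cell markers (-0.09, 0.20 and 1.02), as it was for B cell markers. For NK cell markers (0.84, 0.12 and 1.64) and markers of activated conventional CD4 T cells (0.48, 0.13 and 0.76) it was lowest in library 2. With library 1 alone no B cell or myeloid marker and no marker of activated conventional CD4 T cells was called higher. The difference of Il4 was as large in that fit (1.53 log2 in both, adjusted p = 0.152), that of Cd8a was 0.89 against 1.15 log2 (adjusted p = 0.0675), and that of Lyz2 1.02 against 2.33 log2 (adjusted p = 0.551). In a fit of the 6 libraries alone Lyz2 and Cd8a did not pass. With the B cell covariate the difference of Lyz2 was -0.10 log2. Without miR-27 Tg library 3, 5 B cell markers and none of the markers of activated conventional CD4 T cells were higher, and with any single library other than miR-27 Tg library 1 left out, 0 to 2 myeloid markers. Leaving out miR-27 Tg library 2 or 3 or DKO library 1 ended the call of Lyz2 (adjusted p = 0.0633, 0.0964 and 0.0735), leaving out miR-27 Tg library 3 that of Il4 (adjusted p = 0.0693), and leaving out any of these 3 or DKO library 3 that of Ctss (adjusted p from 0.0553 to 0.131). Of 14 dissociation or stress genes, 1 was lower, Jun, and none was higher. Of the 6 erythroid or platelet markers tested, 1 was higher, and their summed level was 3.33, 181 and 69.02 RPKM in miR-27 Tg libraries 1, 2 and 3 against 1.497 to 5.78 in DKO. The part of such cells in the results above was not tested beyond the values given beside them.

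**Figure D5:**
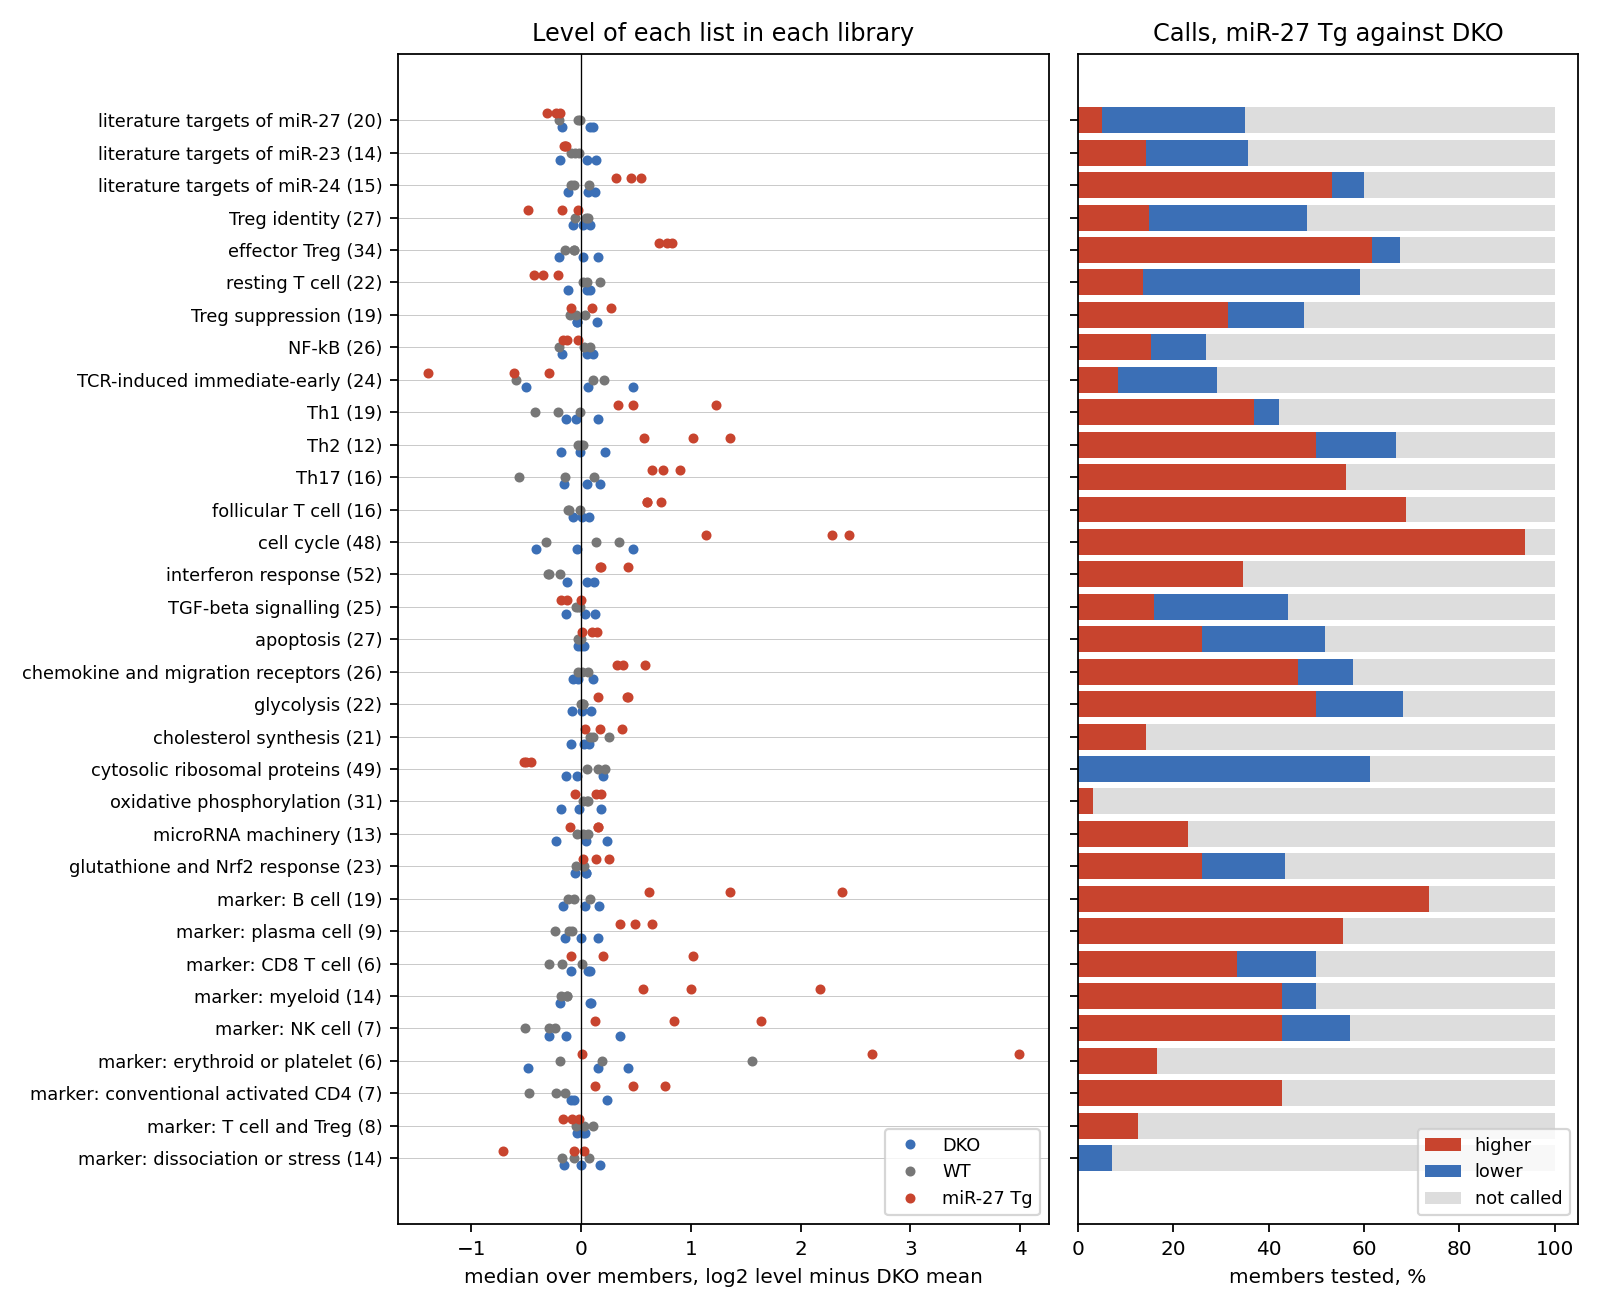
Median over the members of each list of the log2 level minus the DKO mean, 1 point a library (left), and the percent of tested members called higher or lower in miR-27 Tg than in DKO (right), with the number tested after each name. The 3 miR-27 Tg points lie together for effector Treg and ribosomal protein genes and spread for B cell, myeloid and erythroid markers, where library 1 is nearest to DKO.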

How the data were processed

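The RNA-seq comparison was between 6 of 18 libraries of sorted mouse Treg, 3 of miR-27 Tg and 3 of DKO, grouped by the labels. All 18 libraries entered the fit that gave the spread of each gene. The authors deposited 1 table of RPKM values, with 23953 gene entries, and per the submitters' processing notes STAR 2.2.0c, HOMER and the build mm10 (GRCm38) were used. The annotation, strand setting and treatment of shared reads are not given in the sources used here. Gene counts were not used here. Depth was estimated from the steps between low RPKM values of 5346 single-transcript genes, at 20.67 to 32.02 megareads over all libraries. This estimate is rough, since 21.3% to 26.0% of such values lay within 0.03 of a whole read.

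Left out were 4 entries with a repeated symbol, and 27 entries carry symbols turned into dates. The 11520 genes that reached 1 RPKM in 3 or more of the 18 libraries were tested on log2(RPKM + 0.5) with limma 3.58.1 in R 4.3.3, with a mean-variance trend, 1 coefficient per genotype and 1 fit of all 18 libraries, two-sided, with Benjamini-Hochberg adjustment over the 11520 genes and a threshold of 0.05. Fold changes are on this scale and understate changes of low genes. Loci of microRNAs were compared with an exact permutation test. The script was tested on simulated data. Seed matches were sought in the longest GENCODE M21 3′ UTR of each gene with Python 3.11.15.

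Named genes were the 12 largest rises and falls among called genes without overlap and with a mean of at least 2 RPKM in the higher group, up to 4 genes per list by p, a panel of 14 genes, the 6 genes each way with the smallest p in the order of 3 groups, the called genes with a match and the smallest p (6 lower, 3 higher), and the 5 smallest p each way. Predicted, small RNA, antigen receptor and sex-linked symbols were left out of the rules by size or p. A few genes that the rules named are not reported here. Pink1, Rxra, Arpc1a, Xist and Ddx3y were named after their values were seen. The members, lists and rules were chosen with earlier results of these data known. Alternatives were pseudocounts of 0.1 and 1, no filter, a filter on the 6 libraries, median-of-ratios scaling, a fit of the 6 libraries, a replicate block, each library left out, miR-27 Tg library 1 alone (its group is then assumed to vary like the others), and the B cell marker level or Xist as a covariate.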

Additional observations from a re-analysis of the deposited data

How the results depend on the processing

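The direction split and the number of calls held under most settings. Under both pseudocounts, without a filter, with a filter on the 6 libraries, with median-of-ratios scaling, with the replicate block and with the Xist covariate, 1694 to 1956 genes were higher in miR-27 Tg than in DKO and 1326 to 1565 lower, against 1813 and 1464. Median-of-ratios scaling moved the median of all genes from 0.01 to 0.0021 log2 and the share of higher calls from 55.3% to 52.6%. Counts moved by more than 1.5 times in 3 settings. The 6 libraries alone gave 953 higher and 711 lower, miR-27 Tg library 1 as the only one of its group 583 and 355, and the B cell covariate 474 and 331. The first of these has fewer residual degrees of freedom and takes the spread from miR-27 Tg and DKO only, and the second has fewer libraries. The causes of the lower counts were not tested. In the main fit all 6 genotypes share 1 spread per gene, which understates the error where miR-27 Tg spreads more than the others. The median B cell marker, for example, lay at 0.62, 1.36 and 2.38 log2 in miR-27 Tg and at -0.16, 0.17 and 0.04 in DKO. Leaving out single libraries gave 1295 to 1842 higher and 985 to 1532 lower genes.

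Whether the replicate numbers pair the libraries cannot be told. The correlations of deviations of same-numbered miR-27 Tg and DKO libraries were 0.129, 0.004 and 0.140, and differently numbered libraries were not compared. The median immediate-early gene was lowest in library 3 of miR-27 Tg, DKO, WT, cluster Tg and miR-24 Tg. In miR-23 Tg it was not. With the replicate block 1956 genes were higher and 1565 lower, and no named gene lost its call.

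Differences that changed sign were all of genes not called, with the exception of Lyz2 (-0.10 log2 with the B cell covariate). With that covariate Ctla4 was at 0.23, Il2ra at 0.031, Mir24-2 at -0.41, Rel at 0.082 and Runx1 at 0.035. With library 1 alone Foxp3 was at 0.0032, Il2ra at 0.11, Mir24-2 at -1.53 and Runx1 at 0.059. Leaving out single libraries moved Il2ra from -0.12 (without miR-27 Tg library 2) to 0.16 (without miR-27 Tg library 3), with 0.034 without DKO library 1 and 0.062 without DKO library 3, and Runx1 at 0.0084 without DKO library 2. The settings added after the data were seen were the 4 further fits of the seed match classes. RPKM values hold no read counts, so counting error of low genes cannot be given, and a gene listed at 0 may be a failed estimate.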

Other observations

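Arpc1a, the gene beside 2010111I01Rik that differed between DKO and WT, was lower in miR-27 Tg than in DKO by -0.38 log2 (adjusted p = 0.000767). It was lower still in the other overexpressing groups, at 30.4, 32.4 and 30.3 RPKM in the whole-cluster libraries, 38.2, 40.9 and 38.4 in miR-23 Tg and 32.5, 32.2 and 32.1 in miR-24 Tg.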
